A study of Homo sapiens with 4 samples.

Results

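Messenger RNA levels were compared for 10 human genes of intrinsic defence against retroviruses in U937 cells, an established human promonocytic line derived from a histiocytic lymphoma: SAMHD1, the 7 APOBEC3 genes (APOBEC3A, APOBEC3B, APOBEC3C, APOBEC3D, APOBEC3F, APOBEC3G and APOBEC3H), TRIM5 and SLFN11. They were chosen by symbol among 60662 entries of the deposited gene count table, each symbol matched 1 entry, and 9 of the 10 passed the filter on low counts, since APOBEC3H was listed at 0 in all 4 libraries. The libraries came from U937 cells of 2 lots, each kept without PMA or given 10 nM PMA, a phorbol ester and protein kinase C agonist, with 72 h in the labels for both conditions. The labels give the aim of the treatment as macrophage-like differentiation. All 4 libraries are poly(A)-selected RNA sequenced on an Ion Proton instrument, all cells are the same line, and the labels do not say whether a lot is a separate culture, so the p-values cover the spread between these libraries only, which may be technical.

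Restriction factors are host proteins that block steps of viral replication inside the cell. SAMHD1 hydrolyses deoxynucleoside triphosphates and thereby limits reverse transcription in non-dividing myeloid cells, and its antiviral activity is switched off when cyclin A with CDK1 or CDK2 phosphorylates it. APOBEC3 proteins deaminate cytidine to uridine in single-stranded DNA, TRIM5 binds the incoming capsid, and SLFN11 restrains viral protein synthesis. The RNA data below say nothing of protein or phosphorylation.

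Levels are normalised CPM (counts divided by the TMM-scaled library size), and each ± after a mean is the SD over n = 2 libraries. Log2 fold changes set PMA against untreated cells, are followed by their standard error, and come from edgeR's quasi-likelihood test over 16451 genes with Benjamini-Hochberg adjustment and a threshold of 0.05. Where levels of different genes are compared, CPM was divided by the length of the longest annotated transcript in kb. In a bulk library, fewer cells expressing a gene and less RNA per cell cannot be told apart. Total counts were 35739833 to 54915928 per library, with 19080 to 23213 entries above 0, and the mitochondrial share of counts was 2.81% to 8.58%, higher in both libraries of lot 2. All 9 myeloid markers looked for (among them SPI1, CD33, PTPRC and CSF3R) had counts in every library, while the T cell markers CD3D, CD3E, CD2 and CD7, the B cell marker MS4A1 and the erythroid markers HBA1, HBB and GATA1 were listed at 0 in all 4. NKG7 (86.6 to 401 CPM) was the main part of the T and NK list, whose sum was 199.7 to 401 CPM without and 93.9 to 158 CPM with PMA. The other T and NK gene with counts, TRAC, went the other way, at 0.285 and 0 CPM untreated and 7.33 and 26.3 CPM with PMA (edgeR adjusted p = 0.0769, 1.00e-06 with DESeq2 and 0.161 at most, without PMA replicate 2). The summed B cell list was at 17.6 to 26.6 and 11.3 to 13.5 CPM, the erythroid and megakaryocyte list at or below 1.66 CPM, and the fibroblast and epithelial list at or below 0.0216 CPM in each library; the part of these transcripts in the results below was not tested.

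The bases upstream of 3 of these genes are shown, and, as described next, they differ in the letters they carry. Each line holds the 250 bases before the RefSeq gene start, 5′ to 3′ on the gene's strand (GRCh38.p14), in lower case. Capitals mark matches on either strand to 7 searched motifs: the interferon-stimulated response element GAAANNGAAA, AP-1 (TGANTCA), the STAT site (TTCNNNGAA), E2F (TTTNGCGC), the CCAAT box, the GC box (GGGCGG) and TATAAA. RefSeq's promoter table matched 4 of the 10 genes, the other being APOBEC3H.
SAMHD1, chr20:36951709-36951958, minus strand: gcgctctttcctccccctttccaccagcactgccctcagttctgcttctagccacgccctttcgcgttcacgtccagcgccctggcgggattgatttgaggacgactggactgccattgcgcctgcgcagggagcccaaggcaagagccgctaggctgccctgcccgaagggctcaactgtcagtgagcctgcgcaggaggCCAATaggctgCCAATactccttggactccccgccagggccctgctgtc
TRIM5, chr11:5685075-5685324, minus strand: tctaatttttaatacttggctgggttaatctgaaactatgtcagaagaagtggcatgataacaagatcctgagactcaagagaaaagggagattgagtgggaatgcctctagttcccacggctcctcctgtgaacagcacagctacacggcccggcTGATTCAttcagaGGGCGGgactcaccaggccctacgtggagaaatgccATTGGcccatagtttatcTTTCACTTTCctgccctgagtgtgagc
SLFN11, chr17:35373622-35373871, minus strand: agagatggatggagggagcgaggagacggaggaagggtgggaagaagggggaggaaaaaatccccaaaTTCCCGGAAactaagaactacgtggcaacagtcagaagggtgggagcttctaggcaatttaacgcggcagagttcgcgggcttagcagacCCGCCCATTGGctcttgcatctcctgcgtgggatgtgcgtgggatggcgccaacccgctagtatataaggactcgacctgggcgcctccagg

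TRIM5, beside a CCAAT box and a GC box, carried an interferon-stimulated response element (TTTCACTTTC, on the opposite strand) 18 to 27 bases before its start, and an AP-1 match 88 to 94 bases before it. Over all 35116 promoters of the table, 3.02% held the first and 6.57% the second in the same 250 bases. SLFN11 carried a STAT match (TTCCCGGAA, in 6.57% of promoters) 174 to 182 bases upstream, with a GC box next to a CCAAT box. SAMHD1 carried a pair of CCAAT boxes, a motif in 32.0% of promoters, and no match to the other 6. GC box, E2F and TATAAA matches were present in 42.6%, 1.51% and 10.7% of promoters. A match is a run of letters only, and a window without one says nothing of binding. Whether these letters bear on the direction of a gene with PMA was not tested.

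SAMHD1 rose steeply with PMA and alone among the 9 tested genes passed the test over all genes. It had 204 and 163 counts without PMA in lots 1 and 2 and 1543 and 3327 counts with it. That is 3.23 and 3.78 CPM against 47.3 and 72.0 CPM, or 3.50 ± 0.389 and 59.7 ± 17.4 CPM. Both PMA libraries lay far above both untreated ones, 14.7-fold in lot 1 and 19.0-fold in lot 2. The log2 fold change was 4.09 ± 0.45 (edgeR adjusted p = 0.0236). SAMHD1 passed under each of the 11 alternatives, with adjusted p from 1.36e-16 with DESeq2 to 0.0409 without PMA replicate 2. The authors' deposited table also calls it, with a log2 ratio of 4.08 and q = 0.000959. Per kb of transcript, SAMHD1 was the least abundant of the 9 detected genes in both untreated libraries (0.588 and 0.688 CPM per kb) and ranked the third in both PMA libraries (8.62 and 13.1 CPM per kb).

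Among the 9 genes, 1 was called higher and 0 lower, against 4.29% higher and 2.02% lower over all 16451 genes tested. At an unadjusted p under 0.05 there were 3 higher (SAMHD1, APOBEC3G and TRIM5) and 2 lower (APOBEC3B and SLFN11), against 14.6% and 12.5% of all genes tested. DESeq2 called the same 3 genes higher and APOBEC3B lower, where it called 13.4% and 10.4% of genes in these directions. The PMA libraries lay above both untreated libraries for 3 of the 9 genes and below both for 4 (APOBEC3B, APOBEC3C, APOBEC3D and SLFN11), against 31.0% and 29.4% of all genes tested, so the first count is near the background and the second rests on few genes. The authors' deposited table calls 2 of the 10 genes, SAMHD1 and APOBEC3B, and 1.48% of its 60662 entries higher and 0.742% lower.

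**Figure D1:**
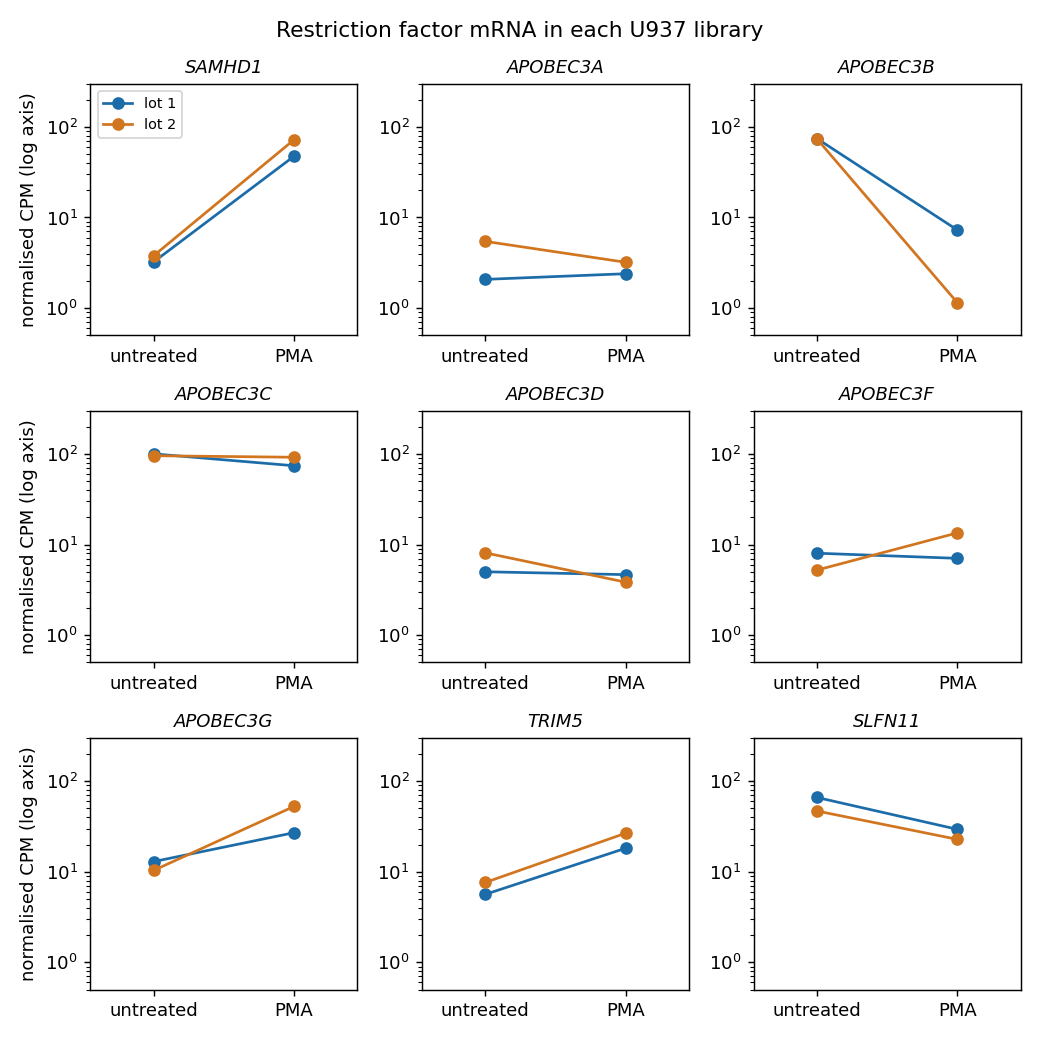
Normalised CPM (log axis) of the 9 detected genes in untreated and PMA-treated U937 cells, with 1 line per lot joining its 2 libraries. SAMHD1 climbs from 3.23 and 3.78 to 47.3 and 72.0 CPM, APOBEC3B drops from 74.2 and 73.5 to 7.27 and 1.15 CPM, and APOBEC3C stays between 74.3 and 100.4 CPM.

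**Figure D2:**
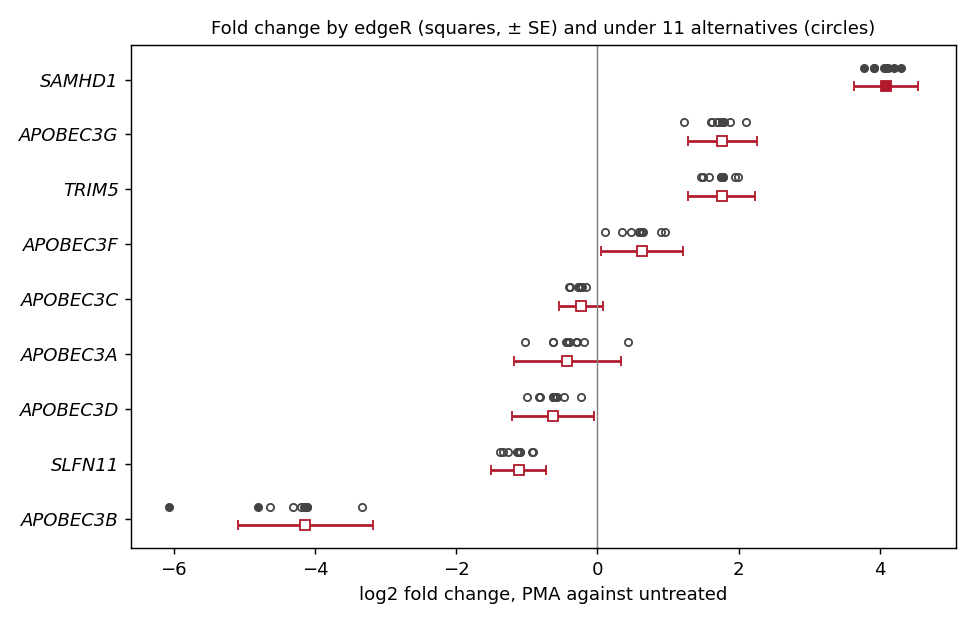
Log2 fold change of each detected gene by edgeR (squares with standard errors) and under each of 11 alternatives (circles); filled symbols have an adjusted p under 0.05. SAMHD1 is filled throughout, from 3.77 to 4.30, whereas APOBEC3B ranges from −6.07 to −3.33 with 4 of 11 circles filled.

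APOBEC3B, a nuclear cytidine deaminase known for mutating tumour genomes, had the largest difference of the family, and it was lower with PMA. It had 4689 and 3171 counts without PMA and 237 and 53 with it. Its level was 74.2 and 73.5 CPM in the untreated lots, nearly the same value, and 7.27 and 1.15 CPM in the PMA lots. Both PMA libraries were far below both untreated ones, by 10.2-fold in lot 1 and 64.1-fold in lot 2. The means were 73.8 ± 0.488 and 4.21 ± 4.33 CPM, a log2 fold change of −4.14 ± 0.96 that did not pass the edgeR test (adjusted p = 0.0685).

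The call of APOBEC3B depended on the fit. It passed without a filter (adjusted p = 0.0457), with limma-voom (0.0229), with DESeq2 (1.27e-05) and without PMA replicate 1 (0.0153, log2 fold change −6.07), and did not pass in the other 7 alternatives, at most 0.105 without PMA replicate 2 (log2 fold change −3.33). Blocking on lot gave an adjusted p of 0.0627. The authors' deposited table gives a log2 ratio of −4.16 and q = 0.00564.

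Other genes also differed between the PMA libraries. The PMA level of APOBEC3B was 6.34 times as high in lot 1 as in lot 2. RRM2, the ribonucleotide reductase subunit made in S phase, stood at 26.8 and 4.05 CPM in the same libraries, 6.61 times as high in lot 1, and the mitotic kinase CDK1 at 8.35 and 1.56 CPM (5.36 times). TYMS, thymidylate synthase, was at 5.68 and 0.281 CPM (20.2 times). After adding 0.1 CPM to each level, 10.4% of all genes tested were more than 2-fold higher in the PMA library of lot 1, as was 1 of the 9 genes, APOBEC3B. More than 6-fold higher were 3.11% of all genes tested and 0 of the 9, since the added CPM lowers the ratio of APOBEC3B. The cyclin gene CCNA2 was 1.80 times and TK1 1.13 times as high in the PMA library of lot 1 as in that of lot 2. Between the untreated libraries, CDK1 was 2.06 times and CCNA2 1.65 times as high in lot 1. For RRM2, TYMS and TK1 the same untreated ratio was 0.913, 0.700 and 0.579. The part of residual cell division in the APOBEC3B level was not tested.

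APOBEC3G, which with APOBEC3F is known for strong activity against HIV-1 lacking Vif, was higher with PMA in both lots but did not pass. Its counts were 819 and 447 without PMA and 880 and 2433 with PMA. In CPM it was at 13.0 and 10.4 against 27.0 and 52.6. The groups did not overlap, yet the ratio was 2.08-fold in lot 1 and 5.08-fold in lot 2. The log2 fold change was 1.77 ± 0.49 (edgeR adjusted p = 0.0937), and over the alternatives adjusted p ran from 0.00588 with DESeq2, the only alternative in which it passed, to 0.566 without PMA replicate 2.

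APOBEC3F moved in opposite directions in the lots. It was at 8.04 and 5.24 CPM untreated and at 7.06 and 13.5 CPM with PMA, so the groups overlapped. The log2 ratio was −0.19 in lot 1 and 1.36 in lot 2 (fitted 0.63 ± 0.58, edgeR adjusted p = 0.560).

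APOBEC3C, a single-domain member, varied little. It was at 100.4 and 95.8 CPM untreated and at 74.3 and 92.2 CPM with PMA, both PMA values below both untreated values. The log2 fold change was −0.24 ± 0.31 (edgeR adjusted p = 0.689), so a difference beyond the spread was not found.

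The remaining detected members were low. APOBEC3D was at 5.02 and 8.11 CPM untreated and at 4.66 and 3.85 CPM with PMA (−0.62 ± 0.58, edgeR adjusted p = 0.559). APOBEC3A, a single-domain deaminase that monocytes are known to induce with interferon, was at 2.07 and 5.45 CPM untreated and at 2.39 and 3.20 CPM with PMA (−0.42 ± 0.76, edgeR adjusted p = 0.778). Its log2 ratio was 0.21 in lot 1 and −0.77 in lot 2, and the fitted value turned to 0.43 without untreated replicate 2 (adjusted p = 0.787, within 0.321 to 0.948 over the alternatives). APOBEC3H had 0 counts in every library, which allows up to 0.0475 and 0.0695 CPM in the untreated and 0.0921 and 0.0649 CPM in the PMA libraries of lots 1 and 2 (3 counts each, counting error only). Of the other deaminases of the wider family, APOBEC1 and APOBEC4 were also at 0 in all 4 libraries and APOBEC2 had counts in untreated 1 alone (0.332 CPM).

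Per kb, APOBEC3 RNA was mainly APOBEC3B and APOBEC3C in untreated cells and mainly APOBEC3C and APOBEC3G with PMA. APOBEC3B made up 46.3% and 46.1% of the family's summed level in untreated lots 1 and 2, and 8.55% and 1.02% with PMA. APOBEC3C had 41.0% and 39.3% without and 57.1% and 53.6% with PMA. APOBEC3G went from 5.37% and 4.32% to 21.1% and 31.1%, and APOBEC3F was at 3.43% and 2.25% against 5.68% and 8.20%. In each library APOBEC3A and APOBEC3D took between 1.61% and 4.26%. These shares sum to 100% and so do not move independently.

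The ratio of APOBEC3G to APOBEC3B per kb was 0.116 and 0.0937 in untreated lots 1 and 2 and 2.47 and 30.5 with PMA. The order of this pair was therefore reversed in both lots. The order within the untreated libraries was APOBEC3B (40.2 and 39.9 CPM per kb), APOBEC3C (35.6 and 34.0), SLFN11 (13.1 and 9.32) and APOBEC3G (4.67 and 3.73), and these 4 did not overlap. Below them lay APOBEC3A, APOBEC3D, APOBEC3F and TRIM5, at 1.40 to 3.69 CPM per kb, with overlapping values, where APOBEC3A and APOBEC3F changed places between lots. With PMA, APOBEC3C led (26.4 and 32.7), followed by APOBEC3G (9.73 and 19.0) and SAMHD1 (8.62 and 13.1), which overlapped each other.

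The summed level of the 7 APOBEC3 genes was 202.7 and 198.5 CPM without PMA and 122.7 and 166.5 CPM with PMA. Both PMA sums were below both untreated sums, but with 2 libraries against 2 the two-sided exact permutation test gives p = 0.333, the smallest value this design allows. Without APOBEC3B the sum of the other 6 genes was 128.5 and 125.0 against 115.4 and 165.3 CPM and the groups overlapped (exact permutation p = 1), so the lower sum rested on APOBEC3B. That version was added after the values were seen.

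**Figure D3:**
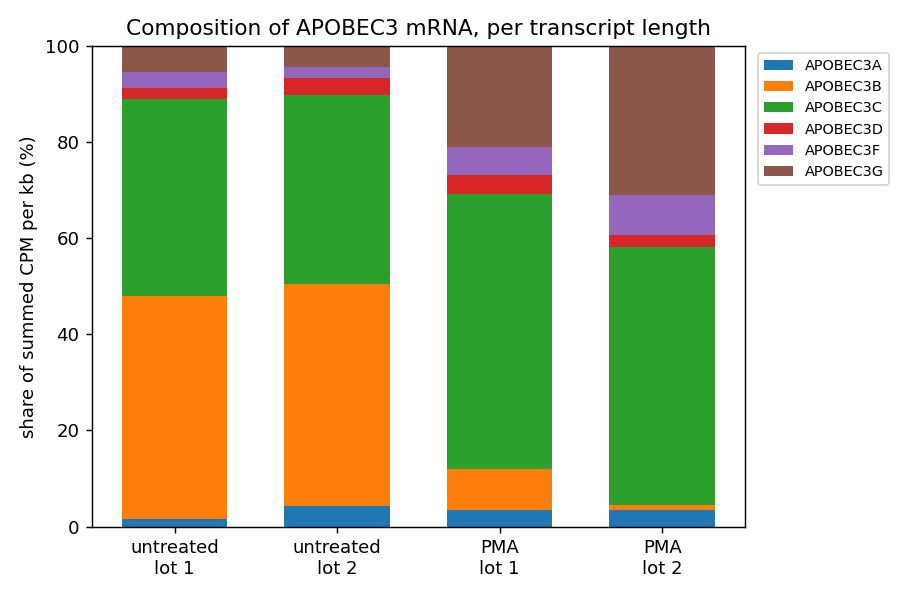
Share (%) of each APOBEC3 gene in the family's summed CPM per kb of transcript, 1 bar per library; APOBEC3H is at 0. The APOBEC3B segment shrinks from 46.3% and 46.1% in untreated cells to 8.55% and 1.02% with PMA, while that of APOBEC3G grows from 5.37% and 4.32% to 21.1% and 31.1%.

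TRIM5, the capsid-binding ubiquitin ligase, was higher with PMA by a like amount in both lots. It had 356 and 329 counts without PMA and 593 and 1233 with it, or 5.63 and 7.63 against 18.2 and 26.7 CPM. The ratio was 3.23-fold in lot 1 and 3.50-fold in lot 2, and the groups did not overlap. The log2 fold change was 1.76 ± 0.48 (edgeR adjusted p = 0.0899); it passed with DESeq2 (0.00387) and in no other alternative, the highest adjusted p being 0.491 without PMA replicate 2. The nearby readthrough TRIM6-TRIM34 had 153 counts in PMA 2 and 0 in the other libraries.

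SLFN11, which is also known for sensitising cells to DNA-damaging drugs, was lower with PMA. It was at 66.1 and 46.9 CPM untreated and at 29.4 and 22.8 CPM with PMA, 2.25-fold and 2.06-fold lower in lots 1 and 2. Both PMA libraries lay below both untreated libraries. The log2 fold change was −1.11 ± 0.39 (edgeR adjusted p = 0.149), with adjusted p from 0.0594 with DESeq2 to 0.721 without PMA replicate 2, so it passed in none of the 11 alternatives.

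Several of these genes have relatives or overlapping transcripts with which reads can be shared. Of the 50-base windows of the longest transcript in GENCODE 29, 39.6% for APOBEC3B and 28.5% for APOBEC3A occur in another gene, chiefly each other (25.4% and 19.5%). For APOBEC3D it was 88.4%, with 83.6% in the readthrough AL022318.4, itself listed at 0 in all 4 libraries. The values were 24.2% for APOBEC3F (11.4% in APOBEC3G), 12.4% for SLFN11 (all in SLFN13) and 10.6% for TRIM5. They were at most 1.16% for SAMHD1, APOBEC3C, APOBEC3G and APOBEC3H. Only the longest transcript of each gene was scored, so shorter APOBEC3G transcripts can share more with APOBEC3F than its own value shows. The sources used here do not say how the authors assigned shared reads, and the levels of APOBEC3A, APOBEC3B, APOBEC3D and APOBEC3F are uncertain. That of APOBEC3G may also hold reads shared with APOBEC3F, which was not tested. TLDC2, on the strand opposite to SAMHD1 and overlapping 10.3% of its exon bases, was also at 0 in all 4 libraries, as was APOBEC3B-AS1.

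The 5 genes whose pattern over the 4 libraries was nearest to that of SAMHD1, by Euclidean distance of log2 CPM centred on each gene's mean, were SLC15A3 (distance 0.149), SLC51B (0.178), VIM (0.189), PLSCR1 (0.234) and CLEC17A (0.238). SLC15A3, a lysosomal peptide transporter, was at 3.56 and 3.99 CPM without and 49.5 and 68.8 CPM with PMA. VIM, the intermediate filament protein vimentin, was at 247 and 265 against 3494 and 4593 CPM, and PLSCR1, an interferon-inducible phospholipid scramblase, at 9.13 and 9.60 against 150.3 and 204.7 CPM. SLC51B and CLEC17A were listed at 0 without PMA and stayed below 0.779 CPM with it, so their distances depend on the prior count used in the logarithm. With 4 libraries many genes share a pattern: 197 of the 16451 tested lay within a distance of 1 of SAMHD1.

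The genes that supply deoxynucleotides, the substrates SAMHD1 destroys, were mostly lower with PMA. Of 16 tested, 3 fell, among them TK1 and DUT, and 0 rose, against 2.02% and 4.29% of all genes tested. In both lots, 11 were lower (35.9% of all genes tested) and 3 higher (37.8%). The median log2 fold change was −2.01, against −0.00 over all genes tested. Thymidine kinase TK1 fell from 43.5 and 75.1 to 2.24 and 1.99 CPM (−4.81 ± 0.50, edgeR adjusted p = 0.0224), and so did the dUTPase DUT (−3.32 ± 0.40, 0.0253). Leaving out PMA replicate 2 gave an adjusted p of 0.0518 for TK1 and 0.0904 for DUT, and without PMA replicate 1 it was 0.0541 for DUT, the lowest over the alternatives being 9.55e-19 for TK1 and 1.25e-11 for DUT, both with DESeq2. RRM2 was at 219 and 239 CPM untreated and at 26.8 and 4.05 CPM with PMA (−3.90 ± 0.95, edgeR adjusted p = 0.0754). RRM2 exceeded SAMHD1 per kb by 101.3 and 94.8 times in the untreated libraries, and the ratio was 0.845 and 0.0840 with PMA. The p53-inducible subunit RRM2B was at 17.7 and 7.26 CPM without PMA and 57.7 and 32.6 CPM with PMA (adjusted p = 0.132).

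Of 14 genes for the kinases, cyclins, phosphatase subunits and CDK inhibitors that act on SAMHD1 or its kinases, 4 fell and 1 rose (median −1.24). The shares over all genes tested were 2.02% lower and 4.29% higher. Cyclin A2, CCNA2, fell from 92.0 and 55.8 to 5.80 and 3.22 CPM (−4.04 ± 0.54, edgeR adjusted p = 0.0281), and so did CCNB1 (−3.23 ± 0.49, 0.0344). Without PMA replicate 2 these were 0.0940 and 0.138, against lowest values of 1.25e-11 and 2.11e-08 with DESeq2. CCND2 and CDK4 also fell (adjusted p = 0.0407 and 0.0490), and in the fit blocked on lot were at 0.0531 and 0.0688. Without PMA replicates 1 and 2 in turn their adjusted p was 0.197 and 0.234 for CCND2 and 0.137 and 0.234 for CDK4, and their lowest, with DESeq2, 2.91e-06 and 7.30e-05; the call of CDK4 was also lost with RLE (0.0538) and upper-quartile factors (0.0510). CDK1 was at 69.0 and 33.5 CPM without and at 8.35 and 1.56 CPM with PMA (−3.38 ± 0.94, edgeR adjusted p = 0.0950, and 0.0448 in the fit blocked on lot), and CDK2 at 61.9 and 53.0 against 29.5 and 29.7 CPM (adjusted p = 0.155). The CDK inhibitor p21, CDKN1A, rose from 5.74 and 7.16 to 1151 and 1200.5 CPM, or by 7.51 ± 0.38 on the log2 scale (edgeR adjusted p = 0.0148).

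Of 27 tested genes for other restriction factors, 5 rose and 0 fell, against 4.29% and 2.02% of all genes tested. In edgeR 16 had an unadjusted p under 0.05, all of them higher (14.6% of all genes tested were higher at this p). The median log2 fold change was 1.79. The exonuclease ISG20 rose from 2.22 and 1.23 to 18.0 and 49.3 CPM (4.28 ± 0.74, edgeR adjusted p = 0.0414), the ubiquitin-like modifier ISG15 by 5.04 ± 0.93 (0.0473), the double-stranded RNA kinase EIF2AK2 by 2.53 ± 0.42 (0.0393), the nuclear DNA sensor IFI16 by 2.48 ± 0.41 (0.0385) and the endoribonuclease N4BP1 by 2.06 ± 0.38 (0.0466). Blocking on lot gave an adjusted p of 0.0542 for IFI16, 0.0665 for ISG20 and 0.0627 for N4BP1. Without PMA replicate 2 it was 0.155 for IFI16, 0.109 for EIF2AK2, 0.0976 for ISG20 and 0.270 for N4BP1, and without PMA replicate 1 it was 0.0851, 0.102 and 0.185 for IFI16, EIF2AK2 and N4BP1. Without untreated replicate 2 it was 0.0680 for ISG20 and 0.0502 for N4BP1, and the call of ISG15 was lost with RLE (0.0502) and upper-quartile factors (0.0568). The lowest values for these genes came from DESeq2 and ran from 2.22e-09 for ISG15 to 1.78e-05 for N4BP1. TREX1, another exonuclease, was at 4.34 and 2.46 CPM without and at 8.47 and 24.1 CPM with PMA (adjusted p = 0.126). ISG15 and N4BP1 are named because they complete the 5, after their values were seen.

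In the list of TRIM5 relatives 0 of 8 tested genes passed with edgeR, 6 had an unadjusted p under 0.05 (5 higher and 1 lower, against 14.6% and 12.5% of all genes), and the median was 1.38. DESeq2 called 5 of these genes higher and 1 lower, and limma-voom 1 higher. In edgeR, 1 was called higher without a filter, in the fit blocked on lot and with either untreated replicate left out, and 1 lower with untreated replicate 1 left out. TRIM22, the neighbour of TRIM5 and an interferon-inducible inhibitor of HIV transcription, was at 8.54 and 16.5 CPM untreated and at 50.9 and 93.5 CPM with PMA (2.53 ± 0.55, edgeR adjusted p = 0.0624, and 0.0416 in the fit blocked on lot). TRIM21, an antibody receptor in the cytosol, was at 19.4 and 30.7 against 67.1 and 102.4 CPM (adjusted p = 0.0772) and TRIM25 at 92.7 and 61.8 against 243 and 184 CPM (0.0787). TRIM34 stayed at or below 6.14 CPM, and TRIM6 had a single count in untreated 1. In the Schlafen list 0 of 3 tested genes passed with edgeR, with 2 at an unadjusted p under 0.05 (1 higher, 1 lower). A Schlafen gene was called higher with limma-voom and with either untreated replicate left out, and 1 was called lower with DESeq2. SLFN5 was at 2.39 and 0 CPM untreated and at 94.7 and 86.4 CPM with PMA (adjusted p = 0.109), SLFN12 at 5.60 and 4.78 against 11.3 and 9.39 CPM (0.279), and SLFN13, which shares windows with SLFN11, at 34.2 and 21.7 against 9.70 and 12.5 CPM (0.141).

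Of 11 interferon signalling genes tested, 2 rose and 0 fell, against 4.29% and 2.02% of all genes tested, and the median was 1.50. The transcription factor IRF7 rose from 3.56 and 5.61 to 68.7 and 165 CPM (4.67 ± 0.63, edgeR adjusted p = 0.0282), and passed under all 11 alternatives. STAT2 was at 44.1 and 20.6 against 178 and 340 CPM (adjusted p = 0.0504). The interferon genes in this list were barely detected: IFNB1 stayed at or below 0.556 CPM, and IFNA1 and IFNL1 were at 0 in all 4 libraries. Other interferon genes were not looked for.

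Of host genes on which viral antagonists depend, 0 of 10 tested were called. Of those used by the capsid or the integrase, 1 of 6 was called. With 4.29% called higher and 2.02% lower over all genes tested, lists this short cannot be set apart from the background. None of 10 tested parts of the CUL5 and CUL4 ubiquitin ligases, which Vif and Vpx borrow to degrade APOBEC3 and SAMHD1 proteins, passed with edgeR, and 0 had an unadjusted p under 0.05 (median −0.03). The smallest p belonged to CUL4A, at 133 and 87.8 CPM without and 84.8 and 59.8 CPM with PMA (adjusted p = 0.387), followed by ELOC (0.420) and DDB1 (0.585). The list of 6 capsid cofactors also holds PSIP1, the tether LEDGF, which is a cofactor of the integrase and not of the capsid. PSIP1, the 1 called gene, fell from 53.2 and 30.5 to 7.49 and 5.08 CPM (−2.73 ± 0.51, edgeR adjusted p = 0.0474). Its lowest adjusted p was 8.66e-06 with DESeq2. The call was not kept without PMA replicate 1 or 2 (log2 fold change −3.10 and −2.47 in turn). Cyclophilin A, PPIA, was at 887 and 2146 against 563 and 697 CPM (adjusted p = 0.183) and RANBP2 at 93.8 and 34.4 against 207 and 114 CPM (0.246).

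Among 9 genes of uracil excision and base repair, which process the uracils that deaminases leave in DNA, 1 fell and 0 rose (median −0.26). This count rests on 1 gene, where 2.02% of all genes tested were called lower and 4.29% higher. PARP1 fell by 2.20 ± 0.39 (edgeR adjusted p = 0.0440, and 0.0580 when blocked on lot). Without PMA replicates 1 and 2 in turn its adjusted p was 0.0835 and 0.245, without untreated replicate 2 it was 0.0560, and its lowest over the alternatives was 2.97e-05 with DESeq2. The uracil glycosylase UNG was at 64.8 and 83.6 CPM without and at 24.3 and 23.8 CPM with PMA (−1.63 ± 0.35, adjusted p = 0.0618), and the abasic endonuclease APEX1 at 299 and 407 against 125 and 119.8 CPM (0.0584).

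**Figure D4:**
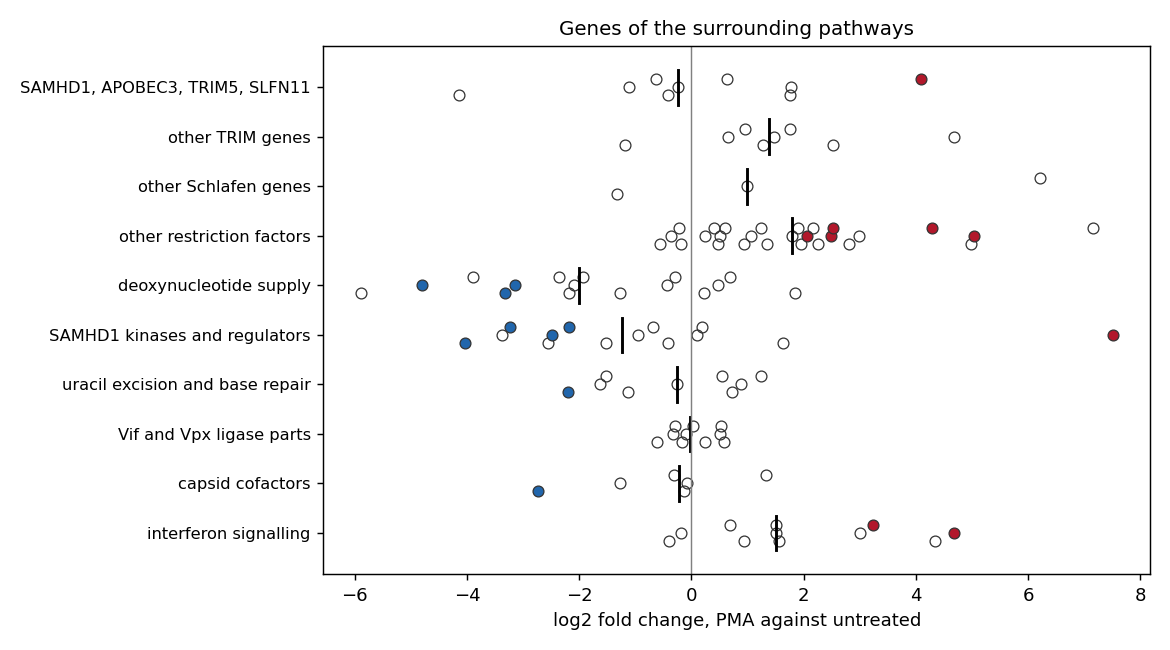
Log2 fold change with PMA of each tested gene, by list; red and blue points passed the edgeR test as higher and lower, open points did not, and black bars are medians. SAMHD1 is the 1 filled point of the top row, other restriction factors and interferon signalling lie to the right (medians 1.79 and 1.50), and deoxynucleotide supply to the left (median −2.01).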

How the data were processed

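Poly(A) RNA of 4 U937 libraries (2 untreated, 2 with PMA, 1 pair per lot) was analysed. The authors deposited a gene table of estimated counts, whole numbers throughout, so that rounding changed 0 values. Per the submitters' processing notes, HISAT2 2.1.0 and StringTie 2.1.1 were used. The sources used here give no build, annotation, counter or strand setting. The authors' second deposited table holds a signal (scaled counts), a log2 ratio, p-values and q-values per gene, a rank and a call; the authors' largest called q was 0.0500.

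Tests used edgeR 4.0.16 in R 4.3.3 (TMM, filterByExpr, quasi-likelihood, no block) over 16451 genes. Standard errors were derived from the F statistic (log2 fold change over its square root). Alternatives were RLE and upper-quartile factors, no filter, DESeq2 1.42.0, limma-voom (limma 3.58.1), the lot as a block, each library left out, and entries with 1 symbol summed. The lot in the titles pairs the libraries; deviations of same-lot libraries from group means correlated at 0.154 across genes. Transcript lengths came from GENCODE 29, which may not be the authors' annotation. The members and lists were chosen with earlier results of these data known. The text names all members, up to 3 genes per list with the smallest p, a called gene in the opposite direction, genes fixed by name, and the 5 nearest to SAMHD1. Some genes that this rule names are not reported here.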

Additional observations from a re-analysis of the deposited data

Results flagged for a closer look

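APOBEC3A and APOBEC3F moved in opposite directions in the 2 lots, a difference that was not tested, since each lot has 1 library per condition. The log2 ratio of PMA to untreated was 0.21 in lot 1 and −0.77 in lot 2 for APOBEC3A, and −0.19 and 1.36 for APOBEC3F.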

How the results depend on the processing

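The call of SAMHD1 was kept under all 11 alternatives. Fits that called further members were DESeq2, with 3 higher and 1 lower, and limma-voom, no filter and the fit without PMA replicate 1, with 1 lower (APOBEC3B). The log2 fold change of APOBEC3B was −4.15 without a filter, −4.11 with DESeq2 and −4.80 with limma-voom, and −6.07 to −3.33 when 1 library was left out. DESeq2 gave 1.80 for APOBEC3G and 1.78 for TRIM5. Leaving out 1 library moved APOBEC3A from −1.02 to 0.43, the reversal being without untreated replicate 2, and members called lower from 0 to 1; the cause was not tested. The summed APOBEC3 level had a log2 ratio of −0.47, and 0.15 without APOBEC3B. Over the pathway lists 8 genes were higher and 9 lower; DESeq2 gave 31 and 21, limma-voom 16 and 15, and leaving out 1 library 4 to 22 and 1 to 16 (fewest without PMA replicate 2, most without untreated replicate 1). With the lot as a replicate block the log2 fold change was 4.06 for SAMHD1 and −4.64 for APOBEC3B, and the block changed no call among the members; in the pathway lists it gave the changes printed above and a call of CDK6 (0.0424 against 0.0848), named after its values were seen. Over all genes 705 were higher and 332 lower, 2205 and 1722 with DESeq2, 1149 and 636 with limma-voom, 1830 and 1085 with untreated replicate 1 left out, and 467 and 277 or 424 and 79 with PMA replicate 1 or 2 left out. Upper-quartile factors moved the median of all genes to −0.17, against −0.00. With 2 libraries per group, leaving out 1 leaves a lone sample whose spread is assumed to equal that of the other group, and differences below the spread between these libraries were not detectable.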
